A study of Mus musculus with 13 samples.

Results

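The genes described here are 9 transcription factors of fat cell formation and of the mature adipocyte, measured in parametrial white adipose tissue (pmWAT) after deletion of Lmna in adipocytes. They are Pparg, Rxra, Cebpa, Cebpb, Cebpd, Klf15, Ebf1, Ebf2 and Zfp423, chosen by name from the 33618 genes of the count table, and each was present as a single row. Bulk RNA-seq was performed on whole pmWAT from 7 Lmna fl/fl control mice and 6 Lmna iADKO mice, all female. Every mouse carried Lmna alleles with loxP sites around part of the gene, and every mouse was given tamoxifen (50 mg/kg on 5 days in a row, started at 12 to 14 weeks of age) and dissected 2 weeks later. The iADKO mice also carried Adipoq-CreERT2, a tamoxifen-activated recombinase under the promoter of the adipocyte gene Adipoq, so the deletion was aimed at adipocytes and the other cells of the tissue were not targeted. The controls had tamoxifen without the recombinase, so effects of the deletion and of Cre itself cannot be told apart.

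PPARG is a nuclear receptor that binds DNA as a partner of RXRA and switches on the genes of lipid storage. C/EBPβ and C/EBPδ are induced early when a precursor cell turns into an adipocyte and precede PPARG and C/EBPα, which then sustain each other in the mature cell. EBF1, EBF2 and ZFP423 act in committed precursors and in adipocytes, and KLF15 is a glucocorticoid-responsive factor that rises late in differentiation.

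Libraries held 18854223 to 19776491 gene counts, with near-identical medians in fl/fl and iADKO (19533703 and 19494365). Levels are given as CPM, gene counts per 1000000 counts of a library, after scaling the libraries with edgeR's trimmed mean of M values (TMM), and differences as iADKO over fl/fl on the log2 scale. The TMM factors did not overlap between the genotypes (0.892 to 1.018 in fl/fl, 1.046 to 1.102 in iADKO). Across 16753 tested genes, the median log2 fold change was 0.03. The libraries labelled iADKO did not have less Lmna: its level averaged 84.7 CPM in the 7 controls (SD 7.51) and 96.7 CPM in the 6 iADKO mice (SD 11.5), a log2 fold change of 0.19 ± 0.079 (SE) with an adjusted p of 0.0785 by edgeR's quasi-likelihood test. The counts cover the whole gene and all cells of the tissue, so they do not check the recombined alleles, and every direction given here rests on the labels. The tissue label fitted its markers: all 10 adipocyte markers were present, with a summed level of 15543 to 22481 CPM in fl/fl and 9363 to 15669 CPM in iADKO.

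Of the 9 transcription factors, 5 were lower in iADKO pmWAT (Cebpa, Pparg, Klf15, Zfp423 and Rxra), at an adjusted p under 0.05 over all tested genes. That is 55.6% of the genes described here, beside 16.3% of all tested genes called lower. None was called higher by edgeR, beside 14.1% of all tested genes. No gene of the 9 was higher at an unadjusted p under 0.05 either, and DESeq2 and limma called 0 higher and 5 lower. All 9 passed the filter on low counts, with at least 164 counts in every library. The other 4 (Ebf1, Cebpb, Ebf2 and Cebpd) did not pass the threshold. All 5 calls were lost when runs of neighbouring animal numbers entered the edgeR fit as a block (adjusted p 0.104 to 0.386). They were also lost when a macrophage marker score entered as a covariate (edgeR adjusted p 0.144 to 0.998). Over all tested genes, 5104 were called in the main fit, 54 with the block and 276 with the covariate. The losses were therefore not particular to these genes. Some runs held a single genotype, and 7 of the 9 macrophage markers were themselves called higher in iADKO. In bulk tissue, fewer adipocytes and less RNA per adipocyte cannot be told apart.

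**Figure D1:**
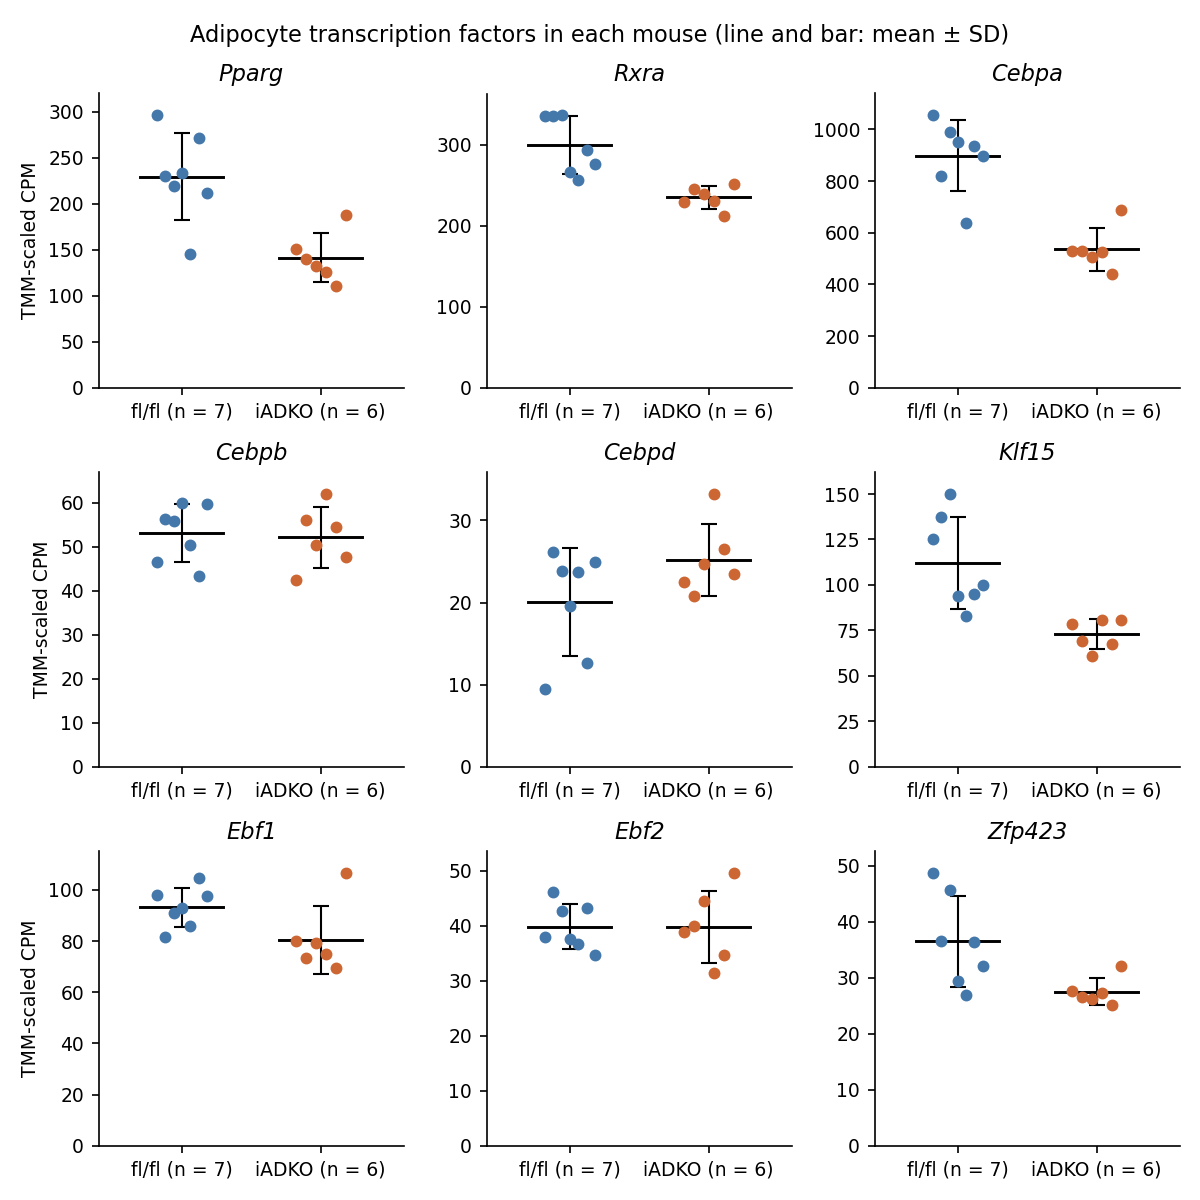
Level of each transcription factor in each mouse, in TMM-scaled CPM on axes that start at 0; every point is a mouse, the line is the mean and the bar the SD of 7 fl/fl or 6 iADKO mice. The genotypes did not overlap for Rxra and Klf15, and in the Cebpa, Ebf1 and Zfp423 panels a single iADKO mouse stood above the other 5.

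The sequences before 3 of the starts are shown because they belong to the member with the largest decrease and to the 2 genes whose windows matched a C/EBP motif. Each is the 250 bases upstream of an annotated start, read 5′ to 3′ on the gene's strand from GRCm39 (the mm39 assembly used by the authors) with GENCODE vM39 starts. Capitals mark a match to the C/EBP letters TTGCNNAA on either strand.
Cebpa, chr7:34818478-34818727 (+): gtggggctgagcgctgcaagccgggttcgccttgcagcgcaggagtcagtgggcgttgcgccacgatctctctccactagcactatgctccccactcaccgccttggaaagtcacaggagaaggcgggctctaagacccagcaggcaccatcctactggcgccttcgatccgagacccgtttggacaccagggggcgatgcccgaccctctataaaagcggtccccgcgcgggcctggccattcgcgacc
Pparg, start of transcript Pparg-201, chr6:115398633-115398882 (+): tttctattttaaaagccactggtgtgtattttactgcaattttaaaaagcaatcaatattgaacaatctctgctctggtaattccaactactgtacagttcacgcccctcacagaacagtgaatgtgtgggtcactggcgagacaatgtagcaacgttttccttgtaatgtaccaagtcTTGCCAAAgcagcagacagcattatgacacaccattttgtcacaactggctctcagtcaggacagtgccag
Ebf1, chr11:44507888-44508137 (+): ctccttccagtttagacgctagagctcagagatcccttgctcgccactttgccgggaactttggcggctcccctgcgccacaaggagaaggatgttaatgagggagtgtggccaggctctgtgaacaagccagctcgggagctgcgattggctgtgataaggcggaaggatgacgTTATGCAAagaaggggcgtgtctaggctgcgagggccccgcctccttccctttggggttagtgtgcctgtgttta

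The Pparg match began 71 bases before the start of Pparg-201, the downstream start that gives the PPARG2 form of adipocytes, and the Ebf1 match lay on the opposite strand and began 75 bases before the Ebf1 start. Among the windows before 21770 protein-coding starts, the canonical start of each gene, 9.34% held such a match. Of the 10 windows examined for the 9 genes (Pparg has 2), the Pparg-201 and Ebf1 windows were the 2 with a match. Pparg-201 is a second start added for Pparg, whose canonical window held no match, so among canonical windows only that of Ebf1 matched. The EBF letters CCCNNGGG were found in 1 window (Cebpb), beside 12.8% of all windows. The nuclear receptor half-site AGGTCA (13.1% of all windows) and the glucocorticoid receptor letters ACANNNTGT (5.22% of all windows) were found in none of the 10, which says only that those letters are not in these 250 bases. The searches covered both strands, the 4 motifs do not overlap in their matches, and a match is a description of sequence and not a bound site.

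Pparg and Rxra encode the nuclear receptor pair. Pparg lies at chr6:115337675-115468268 (plus strand, GRCm39). Its level was 146 CPM in the lowest fl/fl mouse, 230.0 at the median and 296 in the highest, against 111, 136 and 188 CPM in iADKO. The genotypes overlapped through 1 control: fl/fl replicate 5 had the lowest control level and the other 6 controls were above all iADKO mice. The means of 230 CPM (SD 47.8, 7 controls) and 141 CPM (SD 26.6, 6 iADKO mice) gave a log2 fold change of -0.70 ± 0.15 (SE), or 0.615 times the control level (edgeR adjusted p = 0.00405; exact two-sided permutation p = 0.0035). Counts per gene do not separate the transcripts from the upstream starts and from the Pparg-201 start, so which form changed was not measured.

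Rxra (chr2:27566452-27653330, plus strand) ran from 256 CPM through a median of 294 to 336 CPM in fl/fl, and from 212 through 235 to 252 CPM in iADKO. After TMM scaling, every iADKO mouse was below every control, while the raw counts overlapped (5268 in iADKO replicate 2, 4955 in fl/fl replicate 4). Such separation was seen for 3.93% of all tested genes in the lower and 2.71% in the higher direction, and among the 9 for Rxra and Klf15, both lower. The decrease was modest, at -0.35 ± 0.078 (SE) on the log2 scale (adjusted p = 0.00454), and the permutation p of 0.00117 is the smallest that 1716 exact splits of 13 mice can give. Of the related receptors, Rxrg fell (log2 fold change -0.45, adjusted p = 0.0136) and Rxrb was at -0.06 (adjusted p = 0.286).

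Cebpa encodes C/EBPα, which sustains Pparg in mature fat cells. The single-exon gene (chr7:34818718-34821353, plus strand) was the most abundant and most decreased of the 9. Control mice ranged from 638 CPM (fl/fl replicate 5) through a median of 937 to 1054 CPM, and iADKO mice from 439 through 527 to 689 CPM (iADKO replicate 6). Those 2 mice were the only ones that crossed, since the other 6 controls were above all iADKO mice and the other 5 iADKO mice were below all controls. The log2 fold change was -0.75 ± 0.12 (SE; 0.597 times the control level; adjusted p = 7.86e-04; exact permutation p = 0.00233), with a 95% interval of -1.003 to -0.49. Among all tested genes it ranked 669 from the lowest fold change. An antisense noncoding gene, Gm45091, shares 51 exonic bases with Cebpa and had 8.07 CPM in fl/fl and 4.61 CPM in iADKO, small beside the level of Cebpa.

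For the early factors Cebpb and Cebpd, neither difference passed the threshold. Cebpb (chr2:167530835-167532338, plus strand) ran from 43.4 through a median of 55.9 to 59.9 CPM in fl/fl and from 42.3 through 52.4 to 61.9 CPM in iADKO, and the genotypes overlapped throughout. Its log2 fold change was -0.03 with a 95% interval of -0.23 to 0.18 (adjusted p = 0.841), so a decrease of the size seen for Cebpa lay outside the interval. Cebpd (chr16:15705150-15708895, plus strand) ran from 9.43 through 23.7 to 26.1 CPM in fl/fl and from 20.8 through 24.1 to 33.2 CPM in iADKO. Of the 9 genes, Cebpd was the most variable among controls (coefficient of variation 32.7%), with fl/fl replicates 1 and 6 at 9.43 and 12.6 CPM and the other 5 between 19.6 and 26.1 CPM. Its log2 fold change of 0.33 ± 0.21 (SE) did not pass the threshold (adjusted p = 0.258; 95% interval -0.13 to 0.79). Both genes share exonic bases with an antisense protein-coding neighbour, 312 with Peds1 for Cebpb and 563 with Spidr for Cebpd. The strand setting of the authors' counting is not given in the sources used here, so reads in those stretches may be assigned to either gene. Peds1 (54.1 and 56.2 CPM) and Spidr (15.2 and 14.9 CPM) had similar means in fl/fl and iADKO, with adjusted p of 0.690 and 0.788.

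Klf15 (chr6:90438998-90452220, plus strand) encodes a Krüppel-like factor that activates Pparg and the glucose transporter gene Slc2a4. Its level ran from 82.9 through a median of 99.7 to 150 CPM in fl/fl and from 61.0 through 73.9 to 81.0 CPM in iADKO. The genotypes did not overlap in scaled CPM, but their raw counts did (1688 in iADKO replicate 4, 1638 in fl/fl replicate 5). The log2 fold change was -0.62 ± 0.13 (SE; adjusted p = 0.00454; exact permutation p = 0.00117). Controls fell into a higher set (fl/fl replicates 1, 2 and 3, at 125 to 150 CPM) and a lower set (the other 4, at 82.9 to 99.7 CPM), and the 3 higher mice, which carried neighbouring animal numbers, also had the 3 highest Rxra levels (335 to 336 CPM).

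Zfp423 and the early B cell factor genes Ebf1 and Ebf2 mark committed precursors and persist in adipocytes. Zfp423 (chr8:88388438-88687289, minus strand), which encodes a zinc finger protein that promotes Pparg expression in precursors, ran from 27.0 through 36.3 to 48.7 CPM in fl/fl and from 25.2 through 27.0 to 32.1 CPM in iADKO. The control range was wide and its lower end lay inside the iADKO range. The log2 fold change of -0.41 ± 0.13 (SE; adjusted p = 0.0255; exact permutation p = 0.0152) missed the threshold when any of 4 mice was left out (fl/fl replicate 3 or iADKO replicate 2, 3 or 5; adjusted p 0.0518 to 0.0568).

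Ebf1 (chr11:44508138-44898918, plus strand) ran from 81.7 through 92.9 to 105 CPM in fl/fl and from 69.3 through 77.1 to 107 CPM in iADKO. One mouse, iADKO replicate 6, at 107 CPM, was above every control, while the other 5 iADKO mice were below every control. With all mice the log2 fold change was -0.21 ± 0.091 (SE; edgeR adjusted p = 0.0947, unadjusted p = 0.0372). Without iADKO replicate 6 it was -0.31 (edgeR adjusted p = 0.00303), but leaving out the highest iADKO mouse enlarges a decrease by construction. Ebf1 also passed with that mouse kept, when same-numbered mice formed a block and fl/fl replicate 7 was left out (edgeR adjusted p = 0.0293). Ebf2 (chr14:67470736-67668394, plus strand) ran from 34.8 through 37.9 to 46.1 CPM in fl/fl and from 31.5 through 39.4 to 49.5 CPM in iADKO, with a log2 fold change of 0.00 within an interval of -0.21 to 0.21 (adjusted p = 0.994). The family member Ebf3, from the list of further promoting factors, was lower by edgeR (log2 fold change -0.51, adjusted p = 0.00487).

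**Figure D2:**
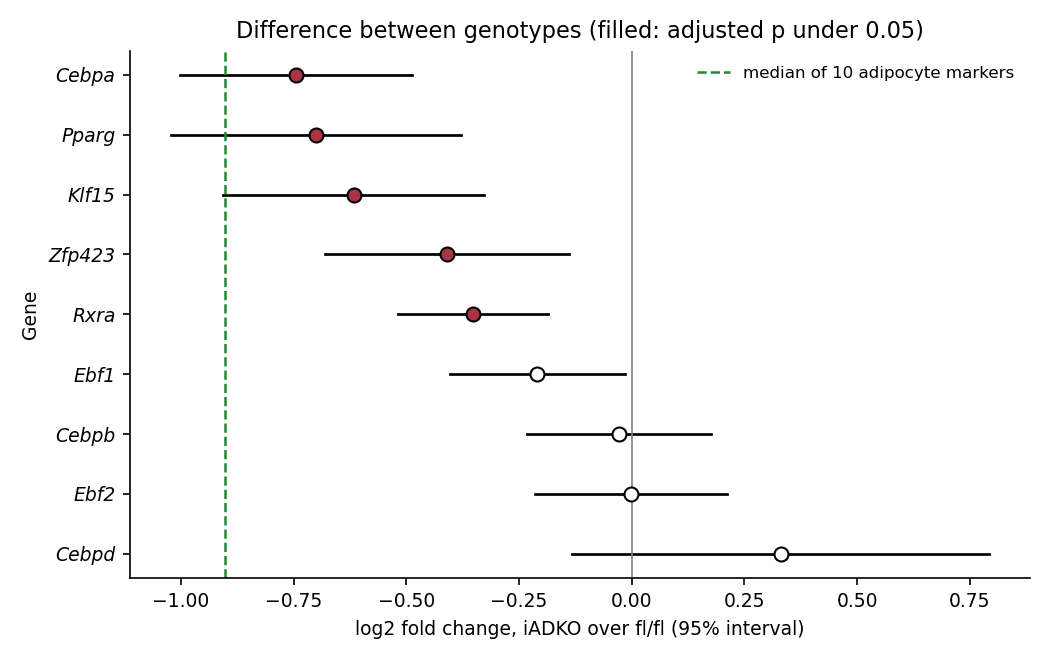
Log2 fold change of each of the 9 genes (points) with its 95% interval (lines), from the edgeR fit of 7 fl/fl and 6 iADKO mice; filled points passed an adjusted p of 0.05. Cebpa, Pparg and Klf15 lie at -0.75 to -0.62, closest to the median of the 10 adipocyte markers (dashed line, -0.90), while Cebpb and Ebf2 lie near 0.

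Beside 16.3% of all tested genes called lower, all 10 adipocyte markers fell, with a median log2 fold change of -0.90. The change of Cebpa was 0.16 above that median and that of Pparg 0.20 above it, on the log2 scale, whereas Rxra was 0.55 and Zfp423 was 0.49 above it. These are distances from a list median, given without a test.

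Levels can be compared between genes only per length of exon, here as CPM per kilobase over the union of annotated exons. In fl/fl, Cebpa was far above the rest at 341 ± 51.6 CPM per kilobase. It was followed by Rxra (43.6 ± 5.16), Cebpb (35.3 ± 4.33) and Pparg (33.0 ± 6.86), whose ranges over mice overlapped. Klf15 came next at 15.2 ± 3.45, then Ebf1 at 9.54 ± 0.798, each with a range apart from its neighbours. Zfp423, Cebpd and Ebf2 shared the lowest place, between 5.32 and 5.48 CPM per kilobase, with overlapping ranges. In iADKO, Cebpa was still highest at 203 ± 31.3 CPM per kilobase. Pparg, at 20.3 ± 3.82 (15.9 to 27.0), no longer overlapped Cebpb (34.6 ± 4.57; 28.1 to 41.2) or Rxra (34.2 ± 2.03; 30.9 to 36.6). The ranges of Klf15 (8.26 to 10.97) and Ebf1 (7.10 to 10.9), apart in fl/fl, overlapped in iADKO.

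**Figure D3:**
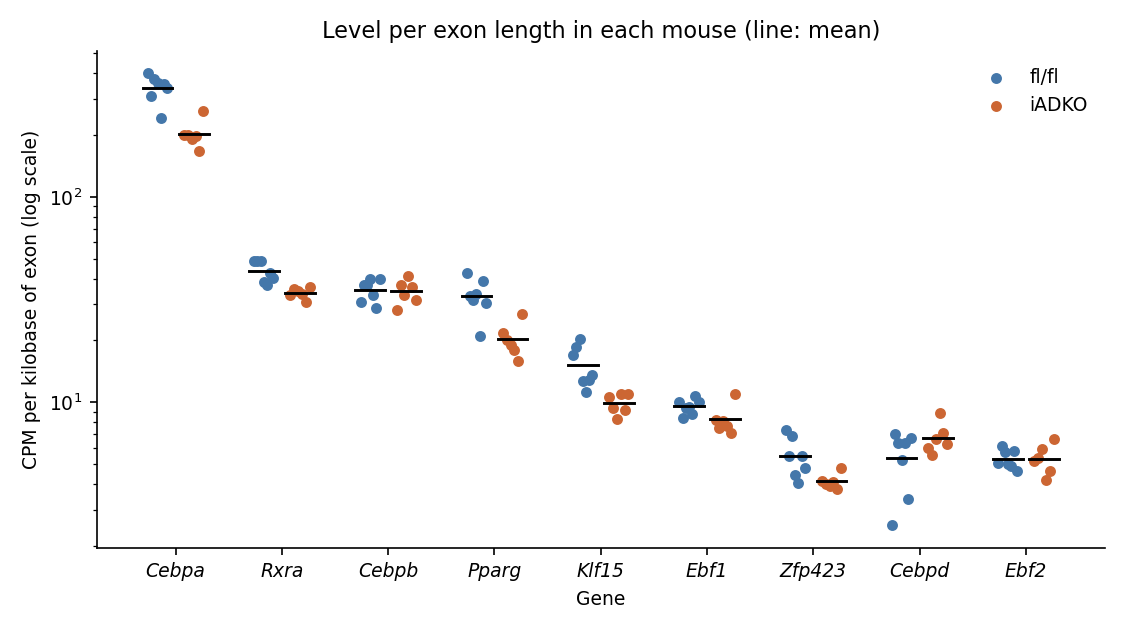
Level of each gene per kilobase of exon in each mouse, on a log axis, with fl/fl and iADKO mice side by side and a line at each mean; genes are ordered by their fl/fl mean. Cebpa stands apart at the top (341 and 203 CPM per kilobase) and Zfp423, Cebpd and Ebf2 share the lowest levels.

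Ratios of members within a mouse compared the genes with each other, for pairs chosen with earlier results of these data known. The 7 pairs were compared by exact two-sided permutation over 1716 splits, with Benjamini-Hochberg adjustment over the 7. Cebpb over Cebpa was the ratio that passed: its mean log2 value was -4.07 ± 0.307 in fl/fl and -3.36 ± 0.328 in iADKO, a difference of 0.71 (adjusted permutation p = 0.0163), with 5 of 6 iADKO mice above all controls. These permutations ignored the runs of neighbouring animal numbers, and the Cebpa decrease did not pass with the runs as a block (edgeR adjusted p = 0.104). With log2 fold changes of -0.03 for Cebpb and -0.75 for Cebpa, Cebpb over Cebpa restates the Cebpa decrease and is not a separate result. With same-numbered mice paired, it did not pass (adjusted p = 0.109 by exact sign flips over 6 pairs, where the smallest unadjusted p is 0.0313). In the run with 2 mice of each genotype, Cebpb differed by -0.02 and Cebpa by -0.37 in mean log2 CPM. In the run with 3 fl/fl mice and 1 iADKO mouse, these differences were 0.09 and -0.84. Cebpa over Pparg differed by -0.05 (1.98 ± 0.161 in fl/fl, 1.93 ± 0.0884 in iADKO; adjusted permutation p = 0.487) and Klf15 over Cebpa by 0.15 (adjusted permutation p = 0.341), with overlapping mice in both cases. Zfp423 over Ebf2 (difference -0.37), Rxra over Pparg (0.35) and Cebpd over Cebpb (0.43) had adjusted permutation p of 0.0530 to 0.0612 and did not pass. The remaining ratio, Ebf2 over Ebf1, differed by 0.21 (adjusted permutation p = 0.104).

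Mouse-to-mouse variation within a genotype was examined after subtracting each genotype's mean log2 CPM. All 36 pairs of the 9 genes were correlated over 13 mice, with p from 100000 permutations of mice within their genotype. By Pearson's r, 9 pairs passed after adjustment over the 36, all positive, but none passed by Spearman's rho (lowest adjusted permutation p = 0.0601). Pparg and Cebpa had the highest r at 0.91 (permutation p = 4.90e-04, adjusted 0.0176; rho = 0.75, permutation p = 0.00479), which was 0.66 when the mice farthest from the Pparg median were left out (the control numbered 5 and the iADKO mouse numbered 6). Rxra and Zfp423 followed at 0.88 (permutation p = 1.00e-03, adjusted 0.0180; rho = 0.88, permutation p = 0.00247; 0.80 without the farthest 2 mice). Klf15 was correlated with Rxra (r = 0.80, adjusted permutation p = 0.0488) and Zfp423 (r = 0.80, adjusted permutation p = 0.0443), but these permutations ignore the runs of neighbouring animal numbers, and the 3 highest controls for all 3 genes were fl/fl replicates 1, 2 and 3 of the same run. The mean of each genotype within each run was then subtracted, which left 11 mice and 6 residual degrees of freedom and was not tested. So computed, r was -0.26 for Klf15 and Rxra, -0.13 for Klf15 and Zfp423 and 0.48 for Rxra and Zfp423. It was 0.88 for Pparg and Cebpa and 0.76 for Cebpb and Cebpd. These 11 mice include the 2 farthest from the Pparg median. The r of Klf15 with Pparg was 0.43 (adjusted permutation p = 0.276) and was 0.00 without those same 2 mice. Cebpb and Cebpd were correlated with each other at r = 0.67 (permutation p = 0.0122, adjusted 0.0488; rho = 0.65, permutation p = 0.0197; 0.64 without the farthest 2 mice). Pparg and Cebpd had the lowest r at -0.64 (permutation p = 0.0310, adjusted 0.0859; rho = -0.63, permutation p = 0.0243; -0.84 without the farthest 2 mice), which did not pass. All the levels of a mouse come from the same library and tissue piece.

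**Figure D4:**
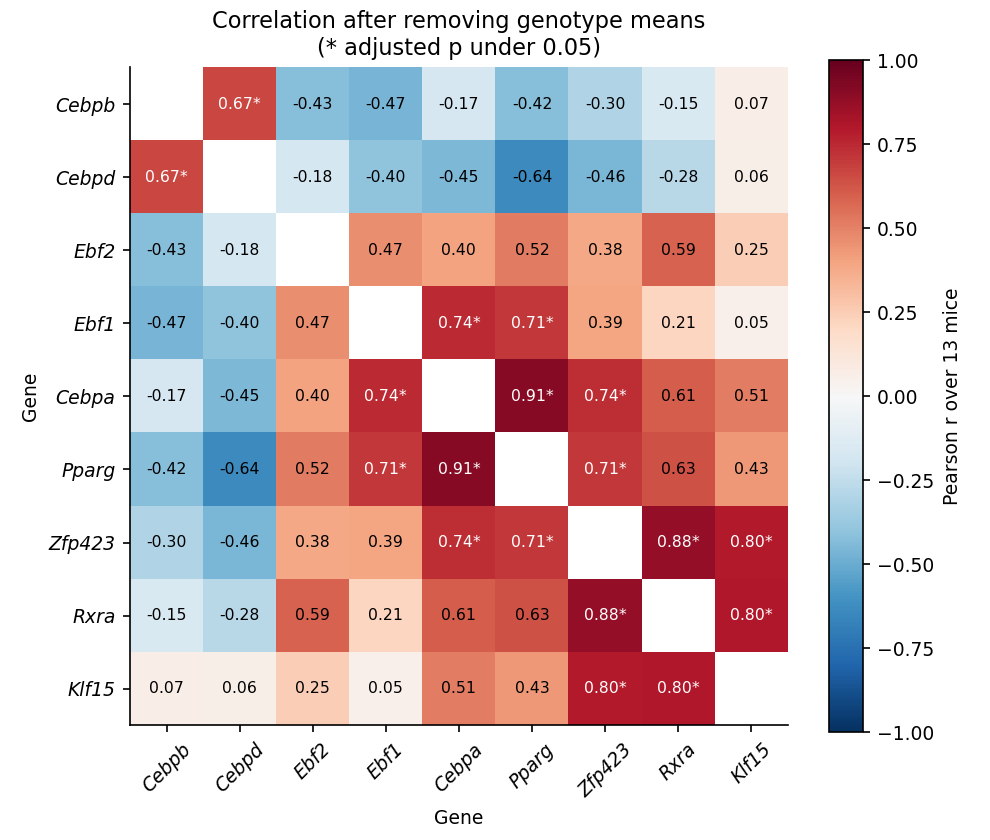
Pearson's r between each 2 of the 9 genes over 13 mice after subtracting genotype means, coloured from blue (negative) to red (positive); an asterisk marks an adjusted permutation p under 0.05. Cebpb and Cebpd are positive with each other (0.67) and negative with Pparg (-0.42 and -0.64), while Pparg and Cebpa reach 0.91.

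Among 10809 genes with a mean log2 CPM of at least 3, those that varied most like each member were named by the same residual r, as a description without p. Cebpa was followed most closely by Slc13a4 (r = 0.96), Plin1 (r = 0.95), which encodes the main coat protein of the lipid droplet, and the mitochondrial gene mt-Nd4 (r = 0.94). For Pparg the closest were the clock gene Cry2 (r = 0.95), the retinoblastoma gene Rb1 (r = 0.95) and Prps1 (r = 0.94). Cebpd varied most like Sgk1, a glucocorticoid-induced kinase gene (r = 0.89), then Tbc1d10a (r = 0.84) and Ighv1-78 (r = 0.84). Klf15 was closest to the nuclear receptor gene Ppard (r = 0.92), Kif1c (r = 0.91) and Prdx6 (r = 0.90). The r of these genes with Klf15 was 0.96 to 0.98 within fl/fl and 0.61 to 0.63 within iADKO. For Cebpd and its nearest genes it was 0.88 to 0.95 within fl/fl and 0.54 to 0.64 within iADKO. The runs of neighbouring animal numbers were not subtracted here, and no mouse was left out. For Pparg and Cebpa, fl/fl replicate 5 and iADKO replicate 6 lay farthest from the median. The r of their nearest genes without those mice was not computed. Ccn2 (r = 0.86) and Nxn (r = 0.85) were among the genes nearest to Cebpb. The nearest genes were Cse1l, Cd164 and Slc38a10 for Rxra (r = 0.94 to 0.95), Bag4, Gm10687 and Pdzd2 for Ebf1 (r = 0.94 to 0.97), Stox2, Atp2b4 and Rims4 for Ebf2 (r = 0.87 to 0.89), and Stradb, Ccnd2 and Tmem135 for Zfp423 (r = 0.95).

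Further lists of adipocyte regulators held genes called in both directions. Of 16 other factors that promote fat cell formation, 7 fell and 1 rose, beside 16.3% of all tested genes lower and 14.1% higher. The decreases were led by Ebf3 and Rxrg, and the smallest was that of the glucocorticoid receptor gene Nr3c1 (log2 fold change -0.23, adjusted p = 0.0347), whose call was lost in 7 of 13 leave-one-out fits (adjusted p up to 0.0868). Egr2, an immediate-early zinc finger gene that is also induced in other cell types, rose (log2 fold change 1.69, adjusted p = 5.79e-04). The list median was -0.06, beside 0.03 for all tested genes.

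Of 14 tested factors that restrain fat cell formation, 2 rose and 0 fell by edgeR (1 was lower at an unadjusted p under 0.05, and 1 by DESeq2 and 0 by limma). The share that rose was near the 14.1% of all tested genes called higher. Those that rose were Ddit3 (log2 fold change 0.59, adjusted p = 5.85e-04), which encodes the stress-induced C/EBP partner CHOP, and Id2 (0.58, adjusted p = 0.00672), an inhibitor of helix-loop-helix factors. Gata3, at 1.23, did not pass (adjusted p = 0.0607). Msx2 did not pass the filter on low counts.

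Among 16 coregulators of PPARG, Ncoa3 (log2 fold change 0.30, adjusted p = 0.00842) and Ep300 (0.20, adjusted p = 0.0355), both coactivators, rose. The call of Ep300 was lost in 10 of 13 leave-one-out fits (adjusted p up to 0.0863). Lpin1, which encodes a phosphatidate phosphatase that also coactivates nuclear receptors, fell (log2 fold change -0.87, adjusted p = 0.00150). The other 13 did not pass and the list median was 0.00, and neither share exceeded that of all tested genes (14.1% higher, 16.3% lower).

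Of 22 direct targets of PPARG, 17 fell and 1 rose, beside 16.3% of all tested genes called lower and 14.1% higher. The list median log2 fold change was -0.88. The largest decreases were in Agpat2, an enzyme of triglyceride synthesis (-1.31, adjusted p = 3.11e-04), and Pck1, which supplies glycerol phosphate (-1.19, adjusted p = 0.0271), and Fabp4, a fatty acid carrier, had the smallest of the 17 (-0.61, adjusted p = 0.0215). The glycerol kinase gene Gk was the target that rose (0.45, adjusted p = 0.0162). The summed level of the list was 36076 to 58048 CPM in fl/fl and 22761 to 37678 CPM in iADKO. Several of these targets are also adipocyte markers, and both lists were chosen with results of these data known.

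Of 12 glucocorticoid receptor targets, 0 fell by edgeR, by DESeq2, by limma or at an unadjusted p under 0.05. By edgeR Gadd45g alone rose (log2 fold change 0.49, adjusted p = 0.0432), a share that did not exceed the 14.1% of all tested genes called higher. Its call was lost when any of 8 mice was left out (fl/fl replicate 1, 3, 5 or 6, or iADKO replicate 3, 4, 5 or 6). Of 12 immediate-early genes, which are induced by stress or tissue handling, 0 fell by edgeR, by DESeq2, by limma or at an unadjusted p under 0.05. By edgeR 4 rose, beside 14.1% of all tested genes called higher. These were Fos (1.47, adjusted p = 0.0198), Atf3 (1.44, adjusted p = 0.00316), Btg2 (0.74, adjusted p = 7.94e-04) and Junb (0.73, adjusted p = 0.0491). The call of Junb was lost in 11 of 13 leave-one-out fits (adjusted p up to 0.105).

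**Figure D5:**
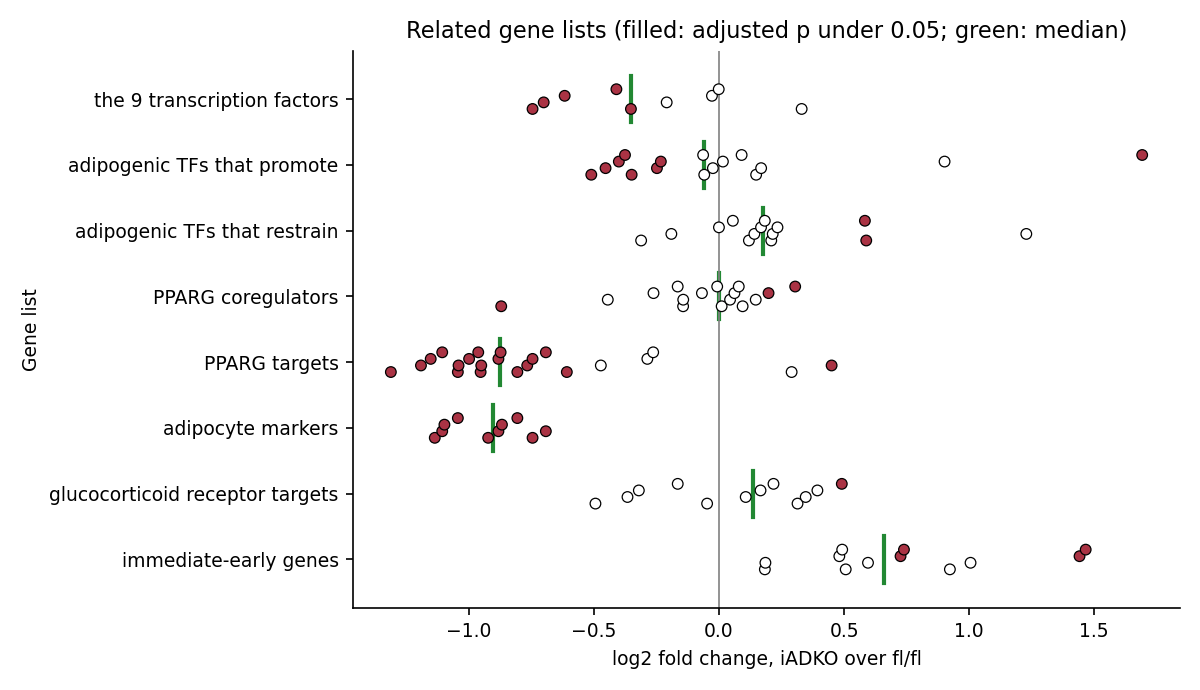
Log2 fold change of every tested gene (points) in the 9 transcription factors and in 7 related lists, with the list median as a green bar; filled points passed an adjusted p of 0.05 in the edgeR fit. The PPARG targets and adipocyte markers lie mostly between -1.31 and -0.61, the immediate-early genes lie above 0, and the promoting, restraining and coregulator lists straddle 0.

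Markers of some other cell types differed between the genotypes, beside 14.1% of all tested genes called higher and 16.3% lower. With the runs of neighbouring animal numbers as a block, 0 of the markers in these lists passed. Of 9 macrophage markers 7 rose and 0 fell (median log2 fold change 0.70), and their summed level was 2139 to 5578 CPM in fl/fl and 3306 to 5728 CPM in iADKO. Of 8 B cell markers 3 rose (summed 32.6 to 82.2 and 63.3 to 128 CPM), of 6 T cell markers 3 rose (15.9 to 25.2 and 23.4 to 30.5 CPM), and of 4 tested epithelial markers 2 rose by edgeR, 3 by DESeq2 and 0 by limma (11.1 to 41.9 and 21.3 to 194 CPM). Of 7 endothelial markers 3 fell (772 to 1059 and 780 to 912 CPM) and of 7 mural markers 1 fell, while 3 were higher at an unadjusted p under 0.05 (790 to 1472 and 937 to 2319 CPM; median log2 fold change 0.10). Of 12 progenitor markers (3770 to 4571 and 3483 to 5034 CPM), 0 passed in edgeR or limma and 1 was lower in DESeq2, with 2 higher and 2 lower at an unadjusted p under 0.05. Of 7 mesothelial markers (377 to 787 and 411 to 908 CPM), 0 passed in edgeR or limma and 1 was higher in DESeq2, with 2 higher at an unadjusted p under 0.05. Several edgeR calls were lost in leave-one-out fits: Csf1r in 11 of 13, Cd79a in 10, Krt8 and Krt18 in 9 each, and Cd79b and Egfl7 in 8 each. The other calls in these lists held in all 13 fits. No marker was at 0 in all libraries, and the part of these cells in the changes of the 9 genes was not tested.

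The 2 mice that crossed in Cebpa also stood apart in macrophage markers. By mean log2 CPM of the 9 macrophage markers, fl/fl replicate 5 was the highest control (8.24, others 7.26 to 7.84) and iADKO replicate 6 the lowest iADKO mouse (7.72, others 8.27 to 8.52). These mice were also the control with the lowest and the iADKO mouse with the highest adipocyte marker score (9.62 and 9.65). With the macrophage score as a covariate, 0 of the 9 genes and 276 of all tested genes passed, and the log2 fold change was -0.34 for Cebpa (adjusted p = 0.144), -0.15 for Pparg (adjusted p = 0.640), -0.31 for Klf15 (adjusted p = 0.486) and 0.00 for Zfp423 (adjusted p = 0.998). Without both mice, 6 of the 9 were called lower, Ebf1 added (log2 fold change -0.35, adjusted p = 6.42e-04), with Cebpa at -0.92 and Pparg at -0.91 (edgeR). Both mice were picked for crossing in Cebpa, and the iADKO mouse was the one above every control in Ebf1, so their removal enlarges these differences by construction and lends them no weight.

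The labels number the animals, and the numbers form 5 runs of neighbours, of which 2 hold both genotypes. In the run with 2 fl/fl and 2 iADKO mice, which holds both mice that crossed, the difference in mean log2 CPM was -0.37 for Cebpa, -0.26 for Pparg, -0.13 for Klf15, -0.12 for Rxra and 0.07 for Zfp423. In the run with 3 fl/fl mice and 1 iADKO mouse it was -0.84 for Cebpa, -0.82 for Pparg, -0.99 for Klf15, -0.45 for Rxra and -0.70 for Zfp423. With the runs as a block in edgeR, the log2 fold changes were -0.58 (Cebpa), -0.51 (Pparg), -0.48 (Klf15), -0.26 (Rxra) and -0.25 (Zfp423), and 0 of the 9 and 54 of all tested genes passed, with adjusted p of 0.104 to 0.386 for these 5 genes. What the numbers mark is not stated in the labels.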

How the data were processed

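Whole pmWAT from 13 mice was sequenced as strand-specific mRNA libraries, with each library from a separate mouse. The authors aligned reads with STAR 2.7.11a to mm39 after FastQC 0.12.1, per the submitters' processing notes, and deposited raw counts per Ensembl gene and DESeq2 regularized log2 values of the same counts. The counting tool, its annotation and its strand setting are not given in the sources used here.

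The deposited counts were analysed with edgeR 4.0.16 (R 4.3.3): filterByExpr, TMM scaling, robust quasi-likelihood test of genotype, and Benjamini-Hochberg adjustment over all 16753 tested genes at 0.05. Log2 CPM used a prior count of 2. Exact permutation tests and correlations used scipy 1.17.1, and 95% intervals come from the edgeR fit. Alternatives were DESeq2 1.42.0, limma 3.58.1 on the deposited log2 values, other filters and scaling, blocks, a covariate and leaving out mice. Of 33618 identifiers, 33184 were found in GENCODE vM39, which gave positions and lengths.

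The 9 genes, the gene lists and the tests were chosen with earlier results of these data known. Named genes were all 9 members, Lmna, the 2 highest and 2 lowest fold changes among called genes of each list, and the 3 genes most like each member, except a gene that is not reported here. Gene and marker examples outside that rule (Rxrb, Gata3, Csf1r, Cd79a, Cd79b, Egfl7, Krt8, Krt18) and correlations within animal-number runs were chosen after values were seen. The labels put all mice in the same batch. Replicates within a genotype differed by more than sampling noise (chi-square per degree of freedom 8.56 to 97.3 over 36 pairs).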

Additional observations from a re-analysis of the deposited data

Results flagged for a closer look

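In 3 of the 18 groups examined (9 genes in each genotype), a single mouse lay farther from the rest than Dixon's 95% critical value allows, and chance gives about 1 in 20 such groups. The groups are not independent: the residual r was 0.74 for Cebpa and Ebf1, 0.74 for Cebpa and Zfp423 and 0.39 for Ebf1 and Zfp423. The 3 groups are therefore not 3 separate events to set against that rate. In all 3 the mouse was the highest iADKO mouse, iADKO replicate 6. For Ebf1 it had 107 CPM against 69.3 to 80.0 CPM in the other 5, a gap of 0.712 of the group's range. For Zfp423 it had 32.1 CPM against 25.2 to 27.6 CPM, a gap of 0.643 of the range. For Cebpa it had 689 CPM against 439 to 530 CPM, a gap of 0.636 of the range, where the critical value for 6 mice is 0.625. The same mouse had the highest score of epithelial markers (5.04 in mean log2 CPM, others of either genotype 0.78 to 3.46) and of immediate-early genes (5.95, others 3.83 to 5.14). The part of those cells or of tissue handling in the 3 values was not tested.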

How the results depend on the processing

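Cebpa, Pparg, Klf15 and Rxra were lower under all 23 alternatives and passed in all but 2 (the block of animal-number runs and the macrophage covariate). Over all alternatives the log2 fold change ranged from -0.92 to -0.34 for Cebpa, -0.91 to -0.15 for Pparg, -0.73 to -0.31 for Klf15, -0.43 to -0.16 for Rxra and -0.54 to 0.00 for Zfp423, which had no direction with the macrophage covariate. Zfp423 also missed the threshold in a block of runs with gaps of up to 15 (adjusted p = 0.0699), an alternative chosen after seeing the data, as was leaving out both fl/fl replicate 5 and iADKO replicate 6. Leaving out 1 mouse at a time gave 4 to 6 lower calls of 9, with 4 where Zfp423 was lost and 6 where Ebf1 was added. Ebf1 also passed with the replicate block (adjusted p = 0.0293).

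Genes near 0 changed sign. Cebpb was at 0.00075 in the replicate block, 0.031 in the block of runs and -0.081 to 0.029 without a mouse. Ebf2 was at 0.0045 with at least 10 counts in every sample, 0.038 and 0.00013 in the blocks of runs (gaps up to 10 and 15), 0.24 with the macrophage covariate and -0.074 to 0.060 without a mouse. With the macrophage covariate Ebf1 was at 0.011 and Cebpd at -0.048. Lmna passed without fl/fl replicate 1 (adjusted p = 0.0411), without iADKO replicate 6 (0.0208) and without both doubted mice (0.0344).

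The block of runs left 54 called genes (40 higher, 14 lower) and none in the gene and marker lists except Gk (adjusted p = 0.0441); with gaps of up to 15 it left 1479 higher calls. The macrophage covariate left 276 (138 higher, 138 lower), with 0 of the 9 lower, 0 PPARG targets in either direction, 0 coregulators in either direction, 0 glucocorticoid targets higher, 1 immediate-early gene higher, and 0 promoting factors lower but 2 higher. DESeq2 called 2 promoting factors higher, 1 restraining factor lower and 3 coregulators lower. Gaps of up to 15 gave 1 restraining factor lower, 1 coregulator higher, 0 PPARG targets higher and 0 glucocorticoid targets higher. Without both doubted mice, 2 promoting factors were higher, 2 restraining factors and 4 coregulators lower, and 0 glucocorticoid targets higher. Leaving out 1 mouse gave 3998 to 6604 called genes, 1 to 2 promoting factors higher (2 without fl/fl replicate 2 or 5 or iADKO replicate 2), 0 to 2 restraining factors lower (2 without fl/fl replicate 5, 1 without fl/fl replicate 7), 1 to 4 coregulators lower (4 without iADKO replicate 6, 2 without fl/fl replicate 2, 5 or 7), 1 to 3 coregulators higher and 0 to 1 glucocorticoid targets higher. The coregulators were at 1 higher without fl/fl replicate 1, 2, 4, 6 or 7 or iADKO replicate 1, 2, 3 or 4. The causes were not tested.

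Cebpb over Cebpa passed without any single mouse (difference 0.64 to 0.81). Of the ratios that did not pass, Rxra over Pparg (0.30 to 0.41) passed without fl/fl replicate 2 or 5 or iADKO replicate 6, Cebpd over Cebpb (0.29 to 0.50) without fl/fl replicate 2 or 5 or iADKO replicate 2, Zfp423 over Ebf2 (-0.44 to -0.29) without fl/fl replicate 2 or 5 or iADKO replicate 4, and Ebf2 over Ebf1 (0.16 to 0.28) without fl/fl replicate 2.

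Subtracting means within runs turned the residual r of Klf15 negative with Rxra (-0.26) and Zfp423 (-0.13).

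Replicate numbers recur in both genotypes, and same-numbered mice correlated at r -0.026 to 0.217 in their deviations over all genes, above 0.1 in 3 of 6 pairs. Of the 6 iADKO mice, 2 correlated best with their own number, so the numbers were not taken to pair the mice. The replicate block, without fl/fl replicate 7, called 4833 genes, 6 of the 9 lower, 1 restraining factor lower, 2 coregulators lower and 1 higher, and 2 PPARG targets higher. The pairing left the difference in Cebpb over Cebpa at 0.74, with an adjusted p of 0.109 by exact sign flips over 6 pairs, where the smallest unadjusted p is 0.0313.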
